A study of Mus musculus with 598 samples.

Results

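Glucose enters a cell through carriers of the Slc2a family and is broken down to pyruvate by the enzymes of glycolysis. The genes described here are 10 members of that route, chosen by name: the carriers Slc2a1 (Glut1) and Slc2a3 (Glut3), the enzymes Hk2, Pfkl, Aldoa, Pgk1, Eno1, Pkm and Ldha, and the kinase Pdk1. All 10 were found among the 40912 genes of the count table, and all 10 passed the minimum level used for comparisons. The measurements are from 598 single mouse cells of the gastrula, all sorted as positive for Mesp1-GFP. The transcription factor Mesp1 marks nascent mesoderm, the layer from which the heart and vessels form.

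There were 3 groups. At E6.75 (embryonic age in days), 85 cells were labelled knockout, and 83 and 89 wild type cells came from 2 library sets described below. The remaining 57.02% of the cells were wild type and a little older, at E7.25. All 3 groups are Mesp1-GFP positive per the labels, so the reporter is shared by knockout and control cells. The labels do not name the deleted gene, the strain, the embryos or the number of embryos. Mesp1 itself lay at 7.40 CPM (reads per 1000000 reads on genes) in the knockout cells. In the wild type cells set beside them it lay at 405.8 CPM, so the cells labelled knockout held little Mesp1. The protocol text of the labels speaks of adult bone marrow. A list of 10 bone marrow genes summed to between 8.19 and 18.5 CPM in any group of cells, against 956 to 2266 CPM for 10 epiblast genes.

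Cells belong to 1 of 2 library sets, which no label gives and which were read from the data. Set 1 holds 57.02% of the cells, with a median depth of 792889 reads, and set 2 the other 42.98%, with a median depth of 2079708 reads. The depth of single cells ran from 101895 to 14159574 reads. Reads of Y-linked genes were present in 49 of the 85 knockout cells, in 53 of the 83 wild type cells of set 1 at E6.75 and in 54.9% of those at E7.25. No cell of set 2 had them at either stage, and at E7.25 the sets also held different kinds of cells, given below. Library set, the sex of the embryos and the mix of cells cannot be told apart between the sets. The knockout cells were all in set 1, so they were compared with the 83 wild type cells of set 1 only. The stages were compared within each set; the E7.25 cells of set 1 are 28.93% of all cells and those of set 2 are 28.09%. All 3 comparisons are between pooled cells with no embryo named, so each group counted as 1 sample and no test was run. "Higher" and "lower" below describe these cells only, and all intervals are 95% and cover counting error only. The first and second comparison share their control cells.

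As background, Slc2a1 and Slc2a3 carry glucose across the plasma membrane. Hk2 traps it as glucose 6-phosphate, Pfkl is the liver-type subunit of phosphofructokinase, and Aldoa, Pgk1, Eno1 and Pkm (aldolase, phosphoglycerate kinase, enolase and pyruvate kinase) lead to pyruvate. Ldha turns pyruvate to lactate, and Pdk1 phosphorylates pyruvate dehydrogenase in the mitochondria, which limits the conversion of pyruvate to acetyl-CoA. Many of these genes are known targets of the hypoxia-inducible factor, which binds a core of ACGTG or GCGTG.

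The promoters below are shown because Slc2a1, Hk2, Pgk1 and Ldha differ in how they behave across the cells. Each is the 250 bases before a RefSeq start site in GRCm38.p6, 5′ to 3′ on the gene's strand, and capitals mark ACGTG or its reverse complement CACGT. The other core, GCGTG, is not in capitals. RefSeq entries of that table were matched for 9 of the 10 genes, and Slc2a3 had none. The Ldha window is the first of 2, and the other 3 genes have 1 each.

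Slc2a1, plus strand, chr4:119108495-119108744: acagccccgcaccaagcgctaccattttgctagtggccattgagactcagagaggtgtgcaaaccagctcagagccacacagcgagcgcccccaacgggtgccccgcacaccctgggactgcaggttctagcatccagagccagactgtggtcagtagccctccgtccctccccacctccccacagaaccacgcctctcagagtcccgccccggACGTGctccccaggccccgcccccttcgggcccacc

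Hk2, minus strand, chr6:82774455-82774704: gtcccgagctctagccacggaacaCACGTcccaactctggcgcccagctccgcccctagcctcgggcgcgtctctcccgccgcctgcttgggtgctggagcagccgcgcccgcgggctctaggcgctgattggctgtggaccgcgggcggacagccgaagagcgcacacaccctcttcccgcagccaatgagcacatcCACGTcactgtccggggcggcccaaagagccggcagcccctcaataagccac

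Pgk1, plus strand, chrX:106186850-106187099: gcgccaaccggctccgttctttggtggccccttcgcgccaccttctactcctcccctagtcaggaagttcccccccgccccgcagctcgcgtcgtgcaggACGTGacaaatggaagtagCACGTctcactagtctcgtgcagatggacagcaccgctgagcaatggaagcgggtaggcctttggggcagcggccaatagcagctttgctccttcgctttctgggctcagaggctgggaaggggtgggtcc

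Ldha, plus strand, chr7:46845554-46845803: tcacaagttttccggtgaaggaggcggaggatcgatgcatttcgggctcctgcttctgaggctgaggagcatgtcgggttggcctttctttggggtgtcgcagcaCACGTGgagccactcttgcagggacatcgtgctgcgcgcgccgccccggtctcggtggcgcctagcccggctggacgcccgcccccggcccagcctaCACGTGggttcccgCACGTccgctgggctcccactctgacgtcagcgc

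The letters ACGTG, on either strand, occurred 1 time before Slc2a1, 2 times before Hk2 and Pgk1, and 5 times before Ldha. In the Ldha window, 2 pairs of these matches overlap, each pair forming the palindrome CACGTG. Of 9 genes, 6 held ACGTG in at least 1 of their windows, and 7 of 16 windows did. Among 32817 promoter windows of the same length, 16.6% held ACGTG and 6.81% held it 2 or more times. A single CACGTG counts as 2 matches, and the 6.81% includes the 6.02% of windows that held CACGTG. The matches before Hk2 and Pgk1 are 2 separate stretches each. With GCGTG counted as well, all 9 genes held a core, in 13 of 16 windows, against 38.6% of all windows. Some windows of Aldoa and of Eno1, which have 3 each, overlap, so the same match counts more than once. A gene could count through any of its windows, while the shares of all windows are per window. A match is a stretch of letters and was not measured as a bound site.

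Ldha was the most abundant of the 10 in every group of cells. Per kilobase of exon, its summed level lay between 1620 and 2020 CPM. Aldoa was second in every group, at 725 to 1036 CPM per kilobase, and Pkm followed, at 550 to 764 CPM per kilobase. Pdk1 was last in every group, at 4.798 to 7.10 CPM per kilobase. In the middle, Slc2a1, Pfkl and Eno1 changed places among ranks 4 to 6 between groups of cells. At E7.25 Slc2a1 held rank 4 in both library sets. These middle ranks rest on the length of all exons, which is 3506 bases for Slc2a1, 6675 for Pfkl and 5379 for Eno1. The longest coding transcripts have 3260, 3730 and 2027 bases, a length that would raise Pfkl and Eno1 more than Slc2a1. Ranks by that length were not computed, so the middle order holds for exon length only. Pgk1 kept rank 7, and Hk2 and Slc2a3 shared ranks 8 and 9. Together the 10 genes took 1.23% to 1.55% of all reads on genes, and Ldha alone made up 39.6% to 44.8% of that.

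Some of these counts depend on near-identical copies. Of the 50-base stretches of the coding transcript, 72.2% for Eno1 and 67.96% for Pgk1 also occur in other annotated genes. The share was 34.4% for Pkm, 16.6% for Ldha and 13.5% for Aldoa. For Slc2a1 it was 1.74%, for Pfkl 0.0543%, and for Slc2a3, Hk2 and Pdk1 it was 0. Eno1b, an enolase copy, held 136.3 to 204.1 CPM and Aldoart1, an aldolase copy, 91.95 to 137.1 CPM, so the levels of Eno1, Pgk1, Pkm, Ldha and Aldoa are uncertain. The counts are per gene, so the muscle and embryonic splice forms of Pkm were not told apart.

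**Figure D1:**
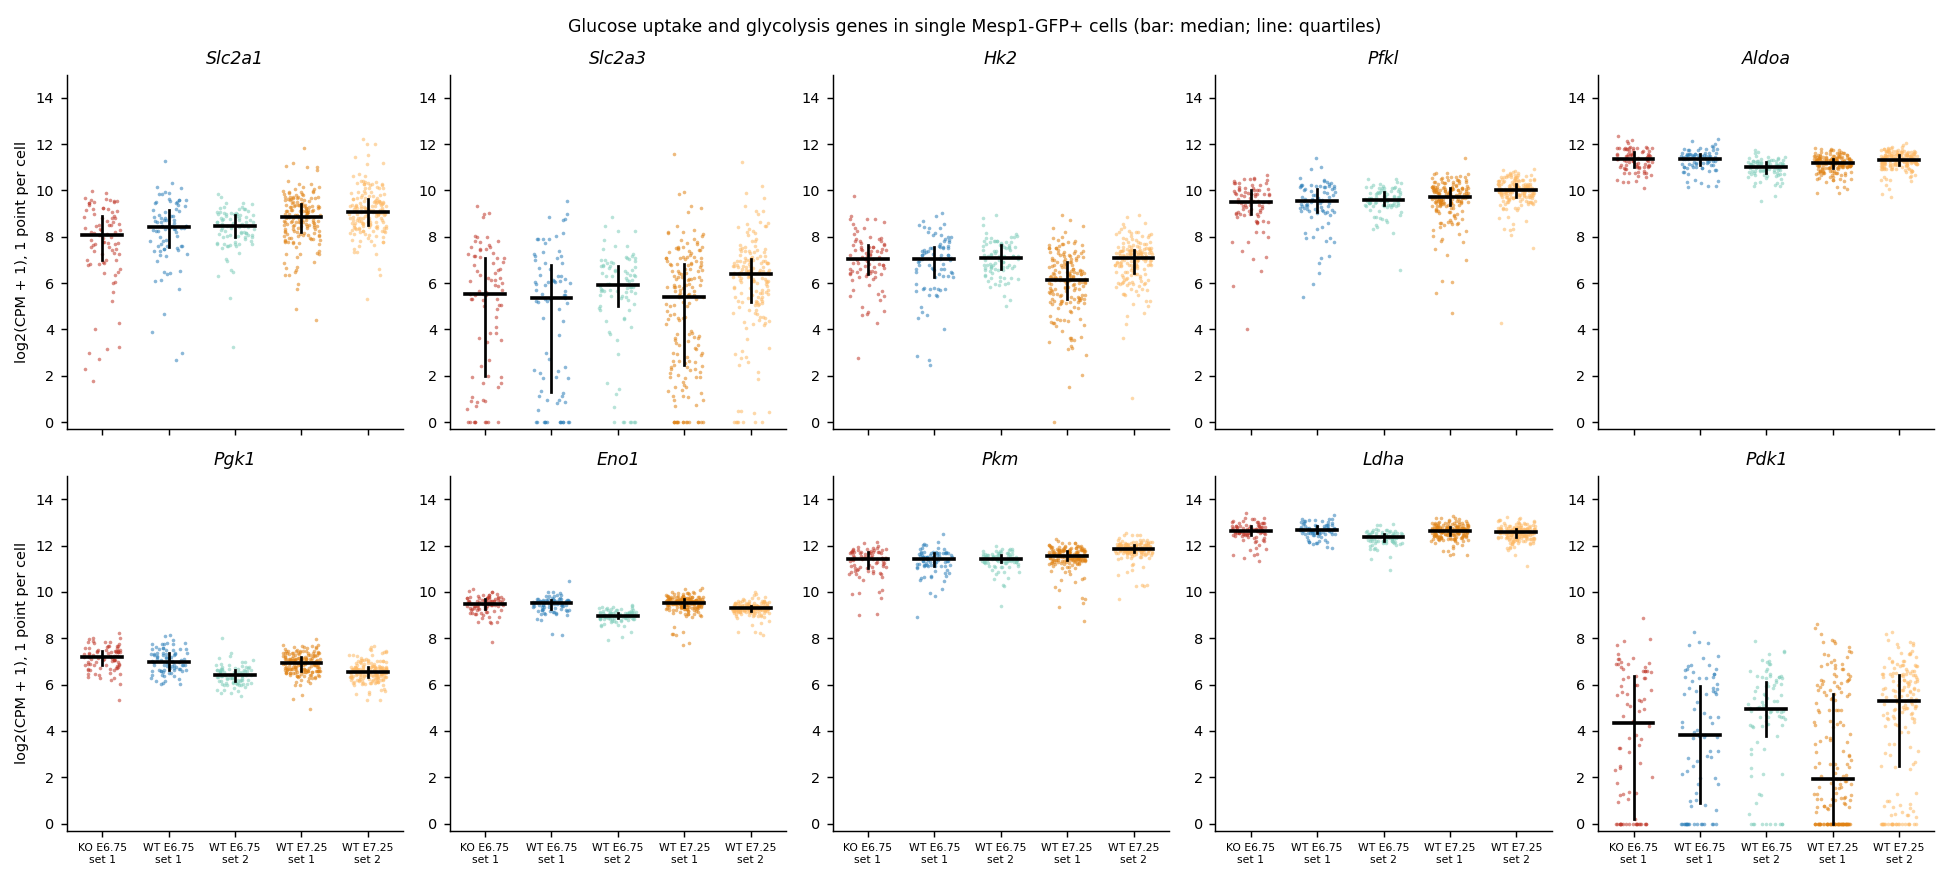
Level of each gene in every cell, as log2 of CPM with 1 CPM added, for knockout (KO) and wild type (WT) cells by stage and library set. Each point is 1 cell, the bar is the median and the line spans the quartiles; Ldha, Aldoa, Pkm and Eno1 form narrow bands, while Slc2a3 and Pdk1 spread from 0 upwards.

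The genes differed in how evenly cells held them. The coefficient of variation across cells (SD over mean of CPM) lay between 0.163 and 0.226 for Eno1 and between 0.187 and 0.247 for Ldha. It was 0.990 to 2.62 for Slc2a3 and 1.02 to 1.86 for Pdk1. The plot of single cells by gene shows this as narrow bands against long columns. Slc2a1 lay between, at 0.477 to 0.930.

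Detection was compared after each cell was thinned to 100000 reads. Pfkl, Aldoa, Pgk1, Eno1, Pkm and Ldha then had a read in all cells of every group. Slc2a1 had one in 94.1% of the knockout cells, in 97.6% of the wild type cells at E6.75 in set 1 and in 100% elsewhere. Slc2a3 was detected in 75.3% of knockout cells, in 65.1% and 83.2% of wild type cells at E6.75 in sets 1 and 2, and in 75.7% and 90.5% at E7.25. For Pdk1 the shares were 60%, 59.04%, 77.5%, 46.2% and 73.2% in the same order. Both genes were detected less often in set 1 than in set 2 at either stage, after equal depth. Without thinning, Slc2a3 had no read in 9, 13, 7, 16 and 7 cells of these groups.

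In the knockout cells, none of the 10 genes lay beyond 1.5-fold of the wild type cells. Of the 10588 genes of at least 5 CPM in the higher group, 22.3% did, 8.46% upwards and 13.9% downwards. The median log2 ratio of the 10 was 0.00, against -0.03 for all genes tested. The terminal enzymes were the closest to their controls, with Ldha at 6688 against 6670 CPM and Pkm at 2886 against 2881 CPM. Eno1 lay at 781 against 801 CPM, Pfkl at 829 against 909, Aldoa at 3015 against 2771 and Pgk1 at 150.2 against 140.98 CPM. Ratios are log2 of CPM with 1 CPM added, a scale on which low genes differ by less than their plain ratio.

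Slc2a1 and Pdk1 were the members farthest from equality in the knockout. In single knockout cells Slc2a1 ran from 2.39 over a median of 271.7 to 1018 CPM, and in wild type cells from 5.33 over 340 to 2471 CPM. The summed levels were 355 CPM (351 to 358) and 443 CPM (439 to 448), a log2 ratio of -0.32. The 2 groups overlapped over nearly their whole range, and a knockout cell held more Slc2a1 than a wild type cell in 41.7% of all pairs. Pdk1 lay at 46.6 against 37.3 CPM, a log2 ratio of 0.31, with medians of 19.6 and 13.2 CPM. Slc2a3 lay at 73.4 against 63.1 CPM and Hk2 at 158.4 against 167.6 CPM, and the median cells differed by less.

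The knockout comparison differed between cells with and without reads of Y-linked genes. Y-linked reads mark cells of male embryos, so the 2 kinds of cells come largely from different embryos and were also compared apart. Where such reads were present (49 knockout, 53 wild type cells) all 10 genes were above equality, with a median log2 ratio of 0.22. Pdk1 alone was beyond 1.5-fold, upwards, where 32% of all genes were, 11.5% upwards and 20.5% downwards. Where they were absent (36 and 30 cells), all 10 were below equality, with a median of -0.41. Slc2a1 and Pdk1 were then beyond 1.5-fold, downwards, where 36.2% of all genes were, 18.6% upwards and 17.6% downwards. Over all genes tested the median log2 ratios were -0.06 and 0.03 in those 2 splits.

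Slc2a1 carried the widest gap between those splits apart from Pdk1. Among cells without Y-linked reads it was at 251.2 CPM for the knockout against 617 CPM for the wild type, a log2 ratio of -1.29, with medians of 204.6 and 501 CPM. Among cells with Y-linked reads it had 410 against 348 CPM, a log2 ratio of 0.23. Pdk1 was at 55.1 against 28.4 CPM with those reads present and at 30.3 against 53.6 CPM with them absent, log2 ratios of 0.93 and -0.80. Of the 4 wild type and knockout splits, the 30 wild type cells without Y-linked reads held the most Slc2a1, Hk2, Pfkl, Pgk1, Eno1 and Ldha in summed reads. By the median cell they held the most only of Slc2a1 (501 CPM) and Hk2 (145.9 CPM) among these 6. The knockout cells with Y-linked reads had the highest median of Pfkl (922 CPM), Pgk1 (166.7), Eno1 (772) and Ldha (6836). The number of embryos behind each split is not given, so genotype and embryo cannot be told apart here.

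**Figure D2:**
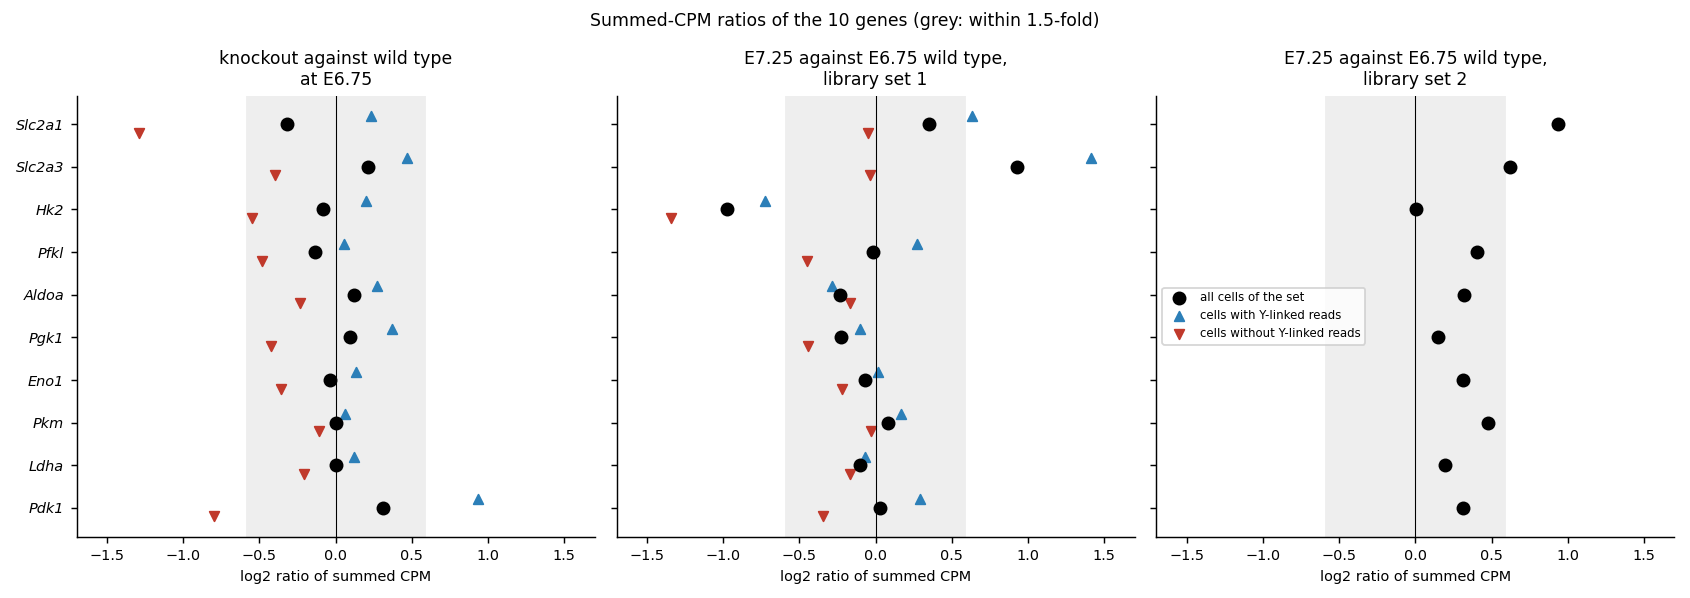
Log2 ratio of summed CPM (x axis) for each gene in the 3 comparisons; black points use all cells of the set, triangles the cells with and without Y-linked reads, and the grey band is within 1.5-fold. In the knockout panel the blue and red triangles lie on opposite sides of 0 for all 10 genes, and in set 2 all black points lie at or right of 0.

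From E6.75 to E7.25 the 2 library sets gave different pictures. Slc2a1 and Slc2a3 were higher at E7.25 in the summed reads of both, Hk2 was lower in set 1 only, and the other enzymes stayed within 1.5-fold in either set. In set 1, 1 member was beyond 1.5-fold upwards (Slc2a3) and 1 downwards (Hk2), where 23.8% of all genes tested were beyond it, 14.5% upwards and 9.23% downwards. In set 2, 2 members were beyond it upwards (Slc2a1 and Slc2a3) and none downwards, where 17.7% of all genes were, 11.4% upwards and 6.32% downwards. The median log2 ratio of the 10 was -0.04 in set 1, against 0.02 for all genes, and 0.32 in set 2, against 0.03. Set 2 has only cells without Y-linked reads. In such cells of set 1 all 10 genes were below equality, with a median of -0.19, while in set 2 all 10 were above it. The E7.25 cells of the sets also fell into different clusters, made as described below. Those of 29 and 17 cells called paraxial and presomitic mesoderm-like held set 2 cells only. In an unnamed cluster of 37 cells, 36 were from set 1.

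Slc2a1 was the member whose median cell was higher at E7.25 by the widest factor in both sets. In set 1 wild type cells ran from 5.33 over a median of 340 to 2471 CPM at E6.75, and from 20.2 over 462 to 3604 CPM at E7.25. The summed levels were 443 and 565 CPM, a log2 ratio of 0.35. In set 2 the cells ran from 8.40 over 349 to 913 CPM at E6.75 and from 39.3 over 542 to 4741 CPM at E7.25. The summed levels were 379 and 727 CPM, a log2 ratio of 0.94. An E7.25 cell held more Slc2a1 than an E6.75 cell in 62.1% of pairs in set 1 and 73.9% in set 2, so the stages overlapped widely. In set 1 the ratio was 0.63 where Y-linked reads were present and -0.05 where they were absent.

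Slc2a3 was higher in the summed reads of both sets, in set 1 with little difference in the median cell and in set 2 with a higher median cell too. In set 1 its median was 39.5 CPM at E6.75 and 41.1 CPM at E7.25, while its highest cell went from 748 to 3084 CPM. The summed levels were 63.1 and 120.8 CPM, a log2 ratio of 0.93. The 5 cells with the most Slc2a3 reads gave 46.1% of all its reads at E7.25 in set 1, and 12.2% of the reads on all genes, against 37.8% of its reads in the top 5 cells at E6.75. In set 2 the summed levels were 85.5 and 132.2 CPM, a log2 ratio of 0.62, and the medians 58.6 and 82.4 CPM. There the top 5 cells gave 27.3% of its reads at E6.75 and 25.4% at E7.25. With every cell weighted equally, or without the deepest 10% of cells, the set 1 ratio no longer passed 1.5-fold, and in cells without Y-linked reads it was -0.04.

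Hk2 behaved differently in the 2 sets. In set 1 it was at 167.6 CPM at E6.75 and 84.7 CPM at E7.25, a log2 ratio of -0.98, and the median cell went from 129.8 to 69.99 CPM. The ratio was -0.73 with Y-linked reads present and -1.34 with them absent. In set 2 it was at 140.3 and 140.6 CPM, with medians of 134.98 and 135.1 CPM. Counted by these splits of set 1, 2 members were beyond 1.5-fold upwards (Slc2a1 and Slc2a3) and 1 downwards (Hk2) where Y-linked reads were present, against 30.9% of all genes in either direction, 17% upwards and 13.8% downwards. Where they were absent, Hk2 alone was beyond it, downwards, against 35.8% of all genes, 21.9% upwards and 14% downwards.

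The later enzymes were at like or slightly lower levels at E7.25 in set 1 and slightly higher in set 2. Pkm was at 2881 and 3055 CPM in set 1 and at 2752 and 3823 CPM in set 2, where an E7.25 cell exceeded an E6.75 cell in 88.5% of pairs. Eno1 was at 801 and 762 CPM in set 1 and at 518 and 644 CPM in set 2. The log2 ratios of Pfkl, Aldoa, Pgk1, Eno1 and Ldha lay between -0.23 and -0.02 in set 1 and between 0.15 and 0.41 in set 2. None of these 5 passed 1.5-fold in either set. Pdk1 was at 37.3 and 38.2 CPM in set 1, with medians of 13.2 and 2.85 CPM, and at 44.3 and 55.2 CPM in set 2.

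Between the 2 glucose carriers, Slc2a1 took most of the reads in all groups. Corrected for exon length, its share of the pair was 90.9% (90.7 to 91.1) in knockout cells and 93.6% (93.4 to 93.7) in the wild type cells of set 1. It was 90.2% (89.998 to 90.33) at E6.75 in set 2, and 90.6% and 91.9% at E7.25 in sets 1 and 2. With the length of the longest coding transcript in place of all exons, the shares were 84.3% to 89.5%.

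The groups differed more in the ratio of the 2 carriers than such high shares show, and 1 difference changed direction with the weighting of cells. Per kilobase, Slc2a1 stood 14.5 times above Slc2a3 in the wild type cells of set 1 at E6.75, 9.99 times in the knockout cells and 9.67 times at E7.25 in set 1. In set 2 the ratio was 9.17 at E6.75 and 11.4 at E7.25. The knockout share was 2.66 percentage points below wild type. At E7.25 the share was 2.93 points below E6.75 in set 1 and 1.74 points above it in set 2. With every cell weighted equally the set 1 difference was 0.956 points in the other direction. The share in the median cell was 94.6% at E6.75 and 96.6% at E7.25 in set 1, and 91.6% and 93.7% in set 2, so the median cell was higher at E7.25 in both sets.

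Few cells held more Slc2a3 than Slc2a1 per length. Of the 79 knockout cells with at least 20 reads of the pair, 5 (6.33%) had a Slc2a1 share under 50%, and the lowest was at 3.18%. None of the 79 and 88 wild type cells at E6.75 did, and at E7.25 1 cell of set 1 (0.581%) and none of set 2 did. Across cells the 2 carriers went weakly together, with Spearman rho between 0.14 and 0.41 in the 5 groups of cells, the highest at E7.25 in set 2.

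**Figure D3:**
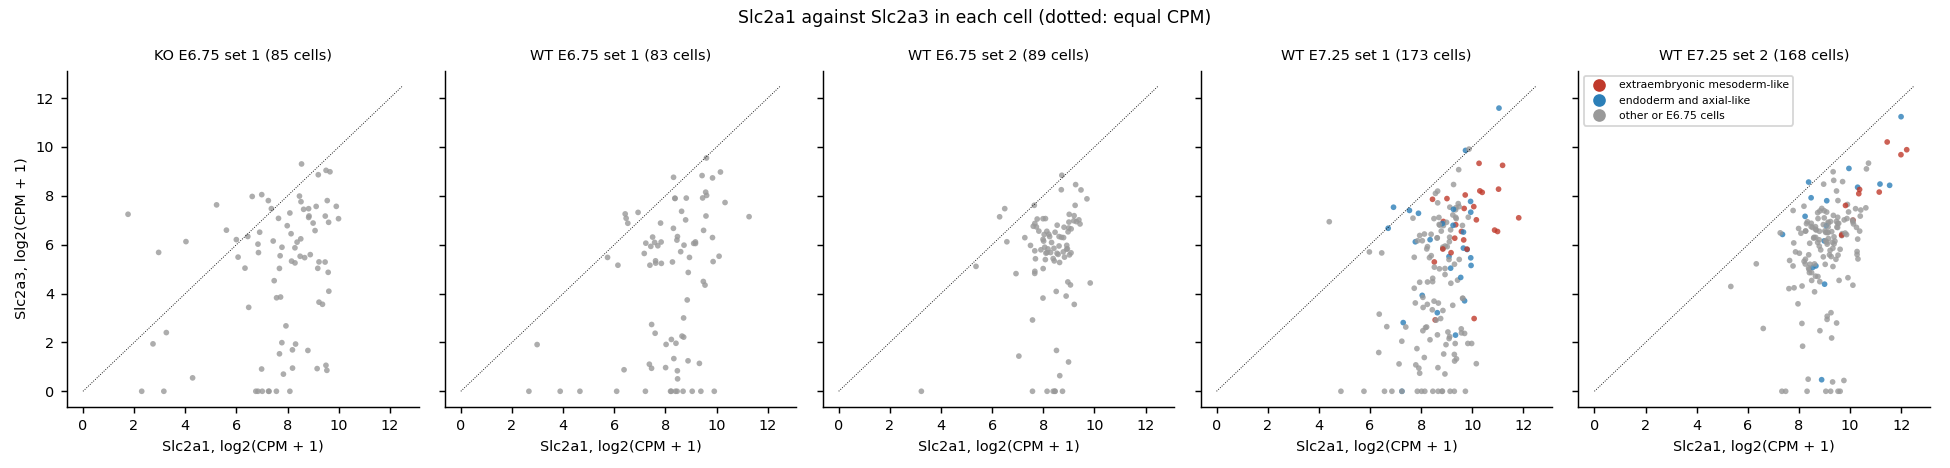
Slc2a1 (x axis) against Slc2a3 (y axis) in each cell, both as log2 of CPM with 1 CPM added, in 5 panels by group and library set; the dotted line is equal CPM. At E7.25 the cells at the upper right belong to the extraembryonic mesoderm-like (red) and endoderm and axial-like (blue) clusters, and the few points above the line in the knockout panel are at low Slc2a1.

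Where the carriers were highest was read from clusters of the cells made without these 10 genes, without the other pathway genes named below and without the genes that separate the library sets. At E7.25, 34 cells formed a cluster led by Bmp4, Tal1 and Ahnak, called extraembryonic mesoderm-like here. This tissue gives rise to the yolk sac, allantois and first blood. Its Slc2a1 level was 1563 CPM against 581 CPM in the other E7.25 cells, a log2 ratio of 1.43, with a median cell of 1070 against 473 CPM. The ratio was 1.39 within set 1 (25 cells) and 1.704 within set 2 (9 cells). The cluster held 9.97% of the cells and 21.6% of the Slc2a1 reads.

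Slc2a3 and Pdk1 were higher in the same cluster. Slc2a3 was at 306.5 against 110.1 CPM, with medians of 157.1 and 54.3 CPM, and Pdk1 at 94.6 against 44.9 CPM, with medians of 55.97 and 13.8 CPM. The enzymes of the glycolytic route were not: the log2 ratios of Hk2, Pfkl, Aldoa, Pgk1, Eno1, Pkm and Ldha in it lay between -0.27 and 0.09. Summed marker lists of other cell types were also high in it. The cluster held 3131 CPM of 10 extraembryonic mesoderm markers against 738 CPM elsewhere, and 695 CPM of 10 haemato-endothelial markers against 160.9 CPM. Over all E7.25 cells the extraembryonic mesoderm list summed to 1929 CPM in set 1 and 472 CPM in set 2. Of the 34 cells of the cluster, 25 were from set 1, and the lists were not compared within sets. Of 10 visceral endoderm markers the cluster held 1128 CPM against 297.8 CPM, with medians of 1012 and 187.2 CPM and 2 of the 10 at 0. Over all E7.25 cells only 3 of these 10 reached 5 CPM in each library set, so few genes carry that list. Of 10 extraembryonic ectoderm markers the cluster held 917 CPM against 389 CPM. That list includes Bmp4, a leading gene of the cluster. Across cells Slc2a1 had a mean rho of 0.23 with the extraembryonic mesoderm markers. It was 0.19 with the visceral endoderm markers and 0.15 with the extraembryonic ectoderm markers. The part of these markers in the carrier levels was not tested. The haemoglobin genes Hbb-bh1 and Hba-x were at 0 reads in all E7.25 cells.

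A second cluster of 43 cells at E7.25, called definitive endoderm and axial mesoderm-like, was led by Cldn6, Trh, Cldn7 and Sox17. The epithelial cadherin Cdh1 and Pim2, from the epiblast list, were also among its leading genes. Its 10 name-giving markers summed to 1317 CPM against 90.9 CPM elsewhere, but the median cell held 34.1 against 5.91 CPM, so few cells carried them. Epiblast markers were at a median of 2302 CPM in it against 811 CPM. At resolution 2 the cluster kept 29 of the 43 cells, and 14 cells formed a separate epiblast-like cluster. It held Slc2a3 at 300.5 CPM against 105.2 CPM elsewhere, a log2 ratio of 1.51, with medians of 90.5 and 57.8 CPM. The ratio was 2.05 in set 1 and 1.21 in set 2. Slc2a1 was at 874 against 645 CPM, with medians of 542 and 503 CPM, and its log2 ratio went from 0.44 to -0.0347 at resolution 2. Its share of the pair was 85.7%, the lowest of the 10 clusters. These 2 clusters were picked for their high carrier levels, so leaving them out lowers the level at E7.25 by construction, and all E6.75 cells were kept. Without them, the stage ratio of Slc2a3 was -0.08 in set 1 and 0.08 in set 2, and that of Slc2a1 was -0.17 and 0.66.

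The lowest carrier levels were in a cluster of 58 cells led by Ripply2, Lefty1 and Lefty2, which was not named. Slc2a1 was at 350 against 726 CPM there, with medians of 364 and 545 CPM. Slc2a3 was at 50.9 against 141.2 CPM. Pdk1 had 4.68 against 56.9 CPM, a log2 ratio of -3.35, and this was seen in set 1 (-3.69, 50 cells) and in set 2 (-2.56, 8 cells). Ldha was at 5824 against 6215 CPM in the same cells. The carrier contrasts of this cluster mix the sets unevenly, since 50 of its 58 cells are from set 1. Over all E7.25 cells Slc2a1 was at 565 CPM in set 1 and 727 CPM in set 2, and Slc2a3 at 120.8 and 132.2 CPM.

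**Figure D4:**
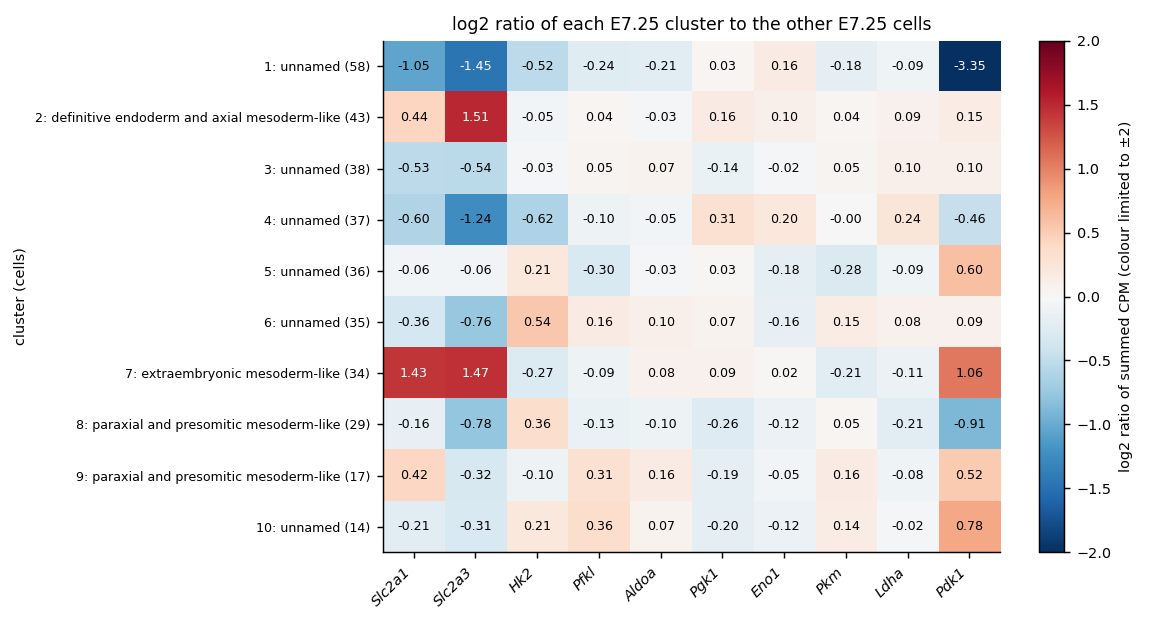
Log2 ratio of summed CPM of each E7.25 cluster (rows, with cell numbers) to the other E7.25 cells, for the 10 genes (columns); red is higher and blue lower, with the colour limited to 2 either way. The columns of Slc2a1, Slc2a3 and Pdk1 hold the deep colours, and those of Aldoa, Pgk1, Eno1, Pkm and Ldha stay pale.

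There were 2 clusters called paraxial and presomitic mesoderm-like, which held set 2 cells only. The 29 cells led by Nkx1-2, Wnt3a and Hoxb1 had Slc2a1 at 609 CPM against 751 CPM in the other set 2 cells, and Pdk1 at 27.5 against 60.96 CPM. The 17 cells led by Alx1 and Tcf15 had Slc2a1 at 878 against 709 CPM and Pdk1 at 69.2 against 53.6 CPM. Clusters at E6.75 are not described. Their adjusted Rand index (1 for equal groupings) with resolution 0.5 and 2 was 0.26 and 0.59 in wild type and 0.30 and 0.36 in knockout cells, against 0.66 and 0.69 at E7.25.

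The other carriers and enzymes of the pathway came from lists, whose counts read against the same backgrounds. A gene was tested if it reached 5 CPM in the higher group. One below 5 CPM in the other group could then pass only towards the higher group. Among the genes named below this holds for Slc2a4, for Slc2a5 and Hk1 in the knockout comparison, for Pdk2 and Pfkfb3 in set 1, and for Ddit4 in set 2. Of 10 further hexose carriers, 2 reached 5 CPM in the knockout and set 1 comparisons and 3 in set 2. Slc2a8, a carrier of inner membranes, was at 17.4 and 36.8 CPM at E6.75 and E7.25 in set 1, and at 22.1 and 39.3 CPM in set 2. Slc2a4, the insulin-responsive carrier, was at 2.58 and 5.66 CPM, and at 3.08 and 7.12 CPM. In the knockout, Slc2a5, a fructose carrier, was at 8.25 against 2.73 CPM.

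Of 12 further glycolysis enzymes, 11 reached 5 CPM. In set 1, 1 was beyond 1.5-fold upwards at E7.25 and 1 downwards, and in set 2, 3 upwards. Ldhb, the other lactate dehydrogenase chain, was in both: 114.8 and 251.7 CPM in set 1, a log2 ratio of 1.13, and 73.2 and 199.5 CPM in set 2, a log2 ratio of 1.43. Its partner Ldha differed by -0.10 and 0.19 on the same scale. Tpi1 and Gpi1, the isomerases of the route, went down in set 1 (-0.49 and -0.51) and up in set 2 (0.48 and 0.31). In the knockout, 2 of the 11 were beyond 1.5-fold downwards: Hk1 at 2.995 against 6.79 CPM and Pfkp at 32.95 against 62.2 CPM. Gapdh, which has many annotated copies, held only 34.3 to 39.8 CPM.

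Genes at the fate of pyruvate were mixed. Of 12 genes of pyruvate dehydrogenase and its control, 4 of 10 that reached 5 CPM were beyond 1.5-fold upwards at E7.25 in set 1 and 2 in set 2, and none downwards. Pdk2, a paralog of Pdk1, was at 3.85 and 10.8 CPM in set 1 and at 5.28 and 15.3 CPM in set 2. Mpc2, a subunit of the mitochondrial pyruvate carrier, was at 17.6 and 40.2 CPM and at 15.2 and 27.4 CPM. Of the lactate carriers, Slc16a1 was at 236.1 and 429 CPM in set 1 and at 299.3 and 442 CPM in set 2. Of 13 genes of the tricarboxylic acid cycle, 0 were beyond 1.5-fold in any of the 3 comparisons.

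Serine synthesis, the pentose phosphate route and the hexosamine route branch off glycolysis. Phgdh, which opens serine synthesis, was at 43.4 and 21.3 CPM in set 1 and at 57.5 and 20.0 CPM in set 2, log2 ratios of -0.996 and -1.48, and the only 1 of 5 in its list beyond 1.5-fold. In the pentose phosphate list, 0 of 6 were beyond 1.5-fold at E7.25 in set 1, 1 was in set 2 (Pgls, 0.72) and 1 in the knockout (Rpe, -0.79). In the hexosamine list, Gfpt2 was at 29.6 CPM in knockout against 85.8 CPM in wild type cells and Gfpt1 at 14.5 against 29.1 CPM; these were the 2 of 6 beyond 1.5-fold there. At E7.25 in set 1, Gfpt1 was beyond it downwards (-1.19) and Pgm3 upwards (0.66), and in set 2 none of the 6 was. Of the control enzymes of fructose 2,6-bisphosphate, Pfkfb3 was at 4.58 and 9.65 CPM in set 1 and at 17.2 and 27.2 CPM in set 2.

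Hypoxia response genes outside glycolysis moved apart between the library sets. In set 2, 3 of 11 tested were beyond 1.5-fold upwards at E7.25 and all 11 were above equality. Ddit4 was at 1.20 and 17.96 CPM, Ndrg1 at 10.3 and 42.4 CPM and Bnip3 at 34.2 and 77.3 CPM. Ddit4 was tested only through its E7.25 level, so its direction followed from the filter. In set 1, 1 of 10 was beyond it upwards and 2 downwards, among them Bnip3, at 95.9 and 51.2 CPM. In the knockout 3 of 10 were beyond it downwards, among them P4ha2 at 6.61 against 25.9 CPM and Egln1 at 13.3 against 29.4 CPM. Among regulators, Hif1a, the oxygen-sensitive subunit itself, differed by -0.07, -0.11 and -0.17 in the 3 comparisons, and Myc by 0.12, -0.57 and -0.86.

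Across cells Pfkl, Aldoa, Pkm and Ldha went together, and Slc2a1 with them, while Pgk1 did so less and Hk2 hardly. Spearman correlations were computed within each of the 5 groups of cells, on reads thinned to 100000, and averaged. Pfkl and Pkm were the closest pair, with a mean rho of 0.59 (0.53 to 0.66 over the groups), then Pkm and Ldha at 0.51 and Aldoa and Ldha at 0.45. Of 45 pairs, 15 had a mean above 0.3 and 30 were positive in all 5 groups, with a median mean of 0.23. Slc2a1 had a mean rho of 0.23 to 0.39 with Pfkl, Aldoa, Eno1, Pkm and Ldha, and Pgk1 one of 0.12 to 0.26 with the same 5. Hk2 was near 0 with each other member, from -0.02 to 0.08. After thinning, the median cell held 7 to 15 reads of Hk2 and 8 to 14 of Pgk1. For Pfkl, Aldoa, Pkm and Ldha it held 69 to 654. Counting error at few reads lowers rho, and its part in the low values of Hk2 and Pgk1 was not tested. The points are cells that share a library set and unknown embryos, so these values are descriptions.

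**Figure D5:**
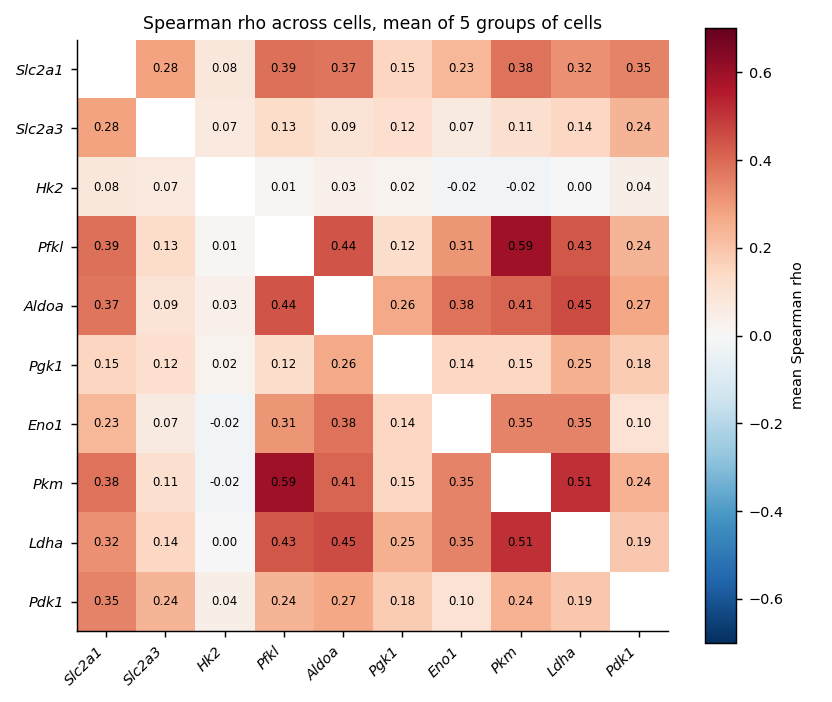
Spearman rho between each pair of the 10 genes across cells, averaged over the 5 groups of cells by stage, genotype and library set; red is positive. The block of Pfkl, Aldoa, Eno1, Pkm and Ldha is positive throughout, Slc2a1 joins it at 0.23 to 0.39, and the Hk2 row is near 0.

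The genes most like Slc2a1 across cells, among 7252 genes of at least 10 CPM in every group, were Slc16a3 (mean rho 0.53), Gpi1 (0.36), Bnip3 (0.35), Tpi1 (0.34) and Apoe (0.33). Slc16a3 is the lactate exporter Mct4. For the summed level of the 10 genes they were Tpi1 and Slc16a3 (both 0.56), Gpi1 (0.54), Aldoart1 (0.50) and Hsp90ab1 (0.40). Aldoart1 shares 50-base stretches with Aldoa, which is part of that sum, so its value is not independent of the sum. For Slc2a3 the values were lower: Slc29a1 (0.29), Apoe and Krt18 (both 0.27), Nectin2 (0.25) and Ezr (0.22). Krt18 and Ezr are genes of epithelial cells, and Krt18 is also on the extraembryonic mesoderm list used here. The rho of Krt18 ran from -0.01 to 0.47 over the 5 groups. Depth moved with the summed level too, with rho between 0.18 and 0.43 over the 5 groups after thinning, and the mitochondrial reads with rho between -0.48 and -0.13; their part in the pairs was not tested.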

How the data were processed

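Single Mesp1-GFP positive mouse cells were sequenced as 1 whole-transcript library per cell. The authors deposited raw read counts for each gene. The submitters' processing notes name GSNAP 2015-09-29, HTSeq 0.5.3p3 and the build mm10. The annotation release, the strand setting and which cells were discarded were not given in the sources used here, and duplicate reads were counted, since the method marks no molecules.

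Cells needed 100000 reads and 2000 genes, which removed 0 of 598. The wild type cells numbered 172 at E6.75 (83 in set 1, 89 in set 2) and 341 at E7.25 (173 and 168), and the knockout cells 85, all in set 1. Symbols and exon lengths came from GENCODE M21 (GRCm38). Set 1 cells had reads of at least 5 of 8 genes that separate the library sets. A cell had Y-linked reads above 3 CPM summed over 3 genes. Summed reads of each group and set were divided by their total over genes to give CPM; ratios are log2 of CPM with 1 CPM added, and a gene beyond 1.5-fold is one past that ratio either way. The summed levels weigh deep cells most: the 8 deepest knockout cells gave 35.3% of knockout reads. Intervals are exact Poisson or Clopper-Pearson, at 95%.

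Clusters were made in scanpy 1.11.5 from 2000 variable genes at resolution 1, with 15 neighbours in 20 components. Names rest on markers listed beforehand. No doublet caller was run on these sorted single cells. Scaling alternatives used edgeR 4.0.16 and DESeq2 1.42.0 factors. The estimators were tested on simulated data.

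The 10 genes and the lists were chosen with earlier results of these data known. Other genes named are Mesp1, up to 4 per list of at least 5 CPM with the largest ratios, the 5 most correlated genes for Slc2a1, Slc2a3 and the sum, and near-identical copies; Gapdh, Hif1a, Ddit4, Tpi1, Gpi1 and the cluster genes were chosen after their values were seen.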

Additional observations from a re-analysis of the deposited data

Results flagged for a closer look

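Several genes differed from their controls in opposite directions in 2 groups of cells under the same comparison; the difference itself was not tested, and no cause was tested. A gene was flagged when both ratios were outside counting error, which leaves out the spread between cells and embryos. In the knockout comparison all 10 genes did so between the cells that had Y-linked reads and those that had none. Some of these ratios were small, such as 0.06 for Pfkl and for Pkm in cells with Y-linked reads. The difference of the 2 log2 ratios (with minus without) was 1.74 for Pdk1, 1.53 for Slc2a1, 0.87 for Slc2a3, 0.79 for Pgk1, 0.75 for Hk2, 0.54 for Pfkl, 0.51 for Aldoa, 0.49 for Eno1, 0.32 for Ldha and 0.17 for Pkm.

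In the stage comparison of set 1, 4 genes did so in the same split, by 0.73 for Pfkl, 0.68 for Slc2a1, 0.64 for Pdk1 and 0.20 for Pkm. Without Y-linked reads the ratios of Slc2a1 and Pkm were near equality, at -0.05 and -0.03. Slc2a3 (1.41 with and -0.04 without Y-linked reads) and Eno1 (0.02 and -0.22) also had opposite signs. Their smaller ratio was within counting error. Between library set 1 and set 2 of the stage comparison, 5 enzymes were lower at E7.25 in set 1 and higher in set 2. The set 1 ratio of Pfkl was near equality, at -0.02. Hk2 (-0.98 and 0.0026) also had opposite signs, with its set 2 ratio within counting error. No cell of set 2 had Y-linked reads, and the sets held different kinds of cells at E7.25. Library set, the sex of the embryos and the mix of cells cannot be told apart. The difference of the log2 ratios (set 1 minus set 2) was -0.55 for Aldoa, -0.42 for Pfkl, -0.38 for Eno1, -0.38 for Pgk1 and -0.29 for Ldha.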

How the results depend on the processing

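No paired analysis was possible because each replicate number in the labels is 1 cell and no test was run. The number of members beyond 1.5-fold in the knockout comparison was 0, where 22.3% of all genes tested were. It was 1 without the deepest 10% of cells. It was 1 where Y-linked reads were present and 2 where they were absent, against 32% and 36.2% of all genes. In the set 1 stage comparison it was 2, where 23.8% of all genes were. It was 1 with every cell weighted equally, with cells thinned or without the deepest 10%, and 0 at 2-fold. In cells without Y-linked reads it was 1, against 35.8% of all genes. In set 2 it was 2, where 17.7% of all genes were. It was 1 with TMM or median-of-ratios factors, without the deepest 10% or with 10 CPM added, and 0 at 2-fold. It was also 1 without the extraembryonic mesoderm-like cluster, alone or with the endoderm-like one (both chosen after seeing the data). Where no share of all genes is given here, the counts are not read against a background.

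For the Slc2a1 share of the carrier pair, in percentage points, the knockout difference was -3.0 with cells of at least 500000 reads and 4000 genes, -3.41 without the deepest 10%, -0.615 with both library sets pooled, -1.30 and -3.73 in cells with and without Y-linked reads and -4.07 with coding transcript length. The set 1 stage difference reversed to 0.956 with equal weights, 0.975 with thinned cells, 0.450 without the deepest 10% and 0.0296 with both sets pooled. It was -3.96 with deeper cells, -5.11 and -0.0388 in cells with and without Y-linked reads, -4.25 and -0.395 without 1 or both clusters, and -4.48 with coding length. The set 2 difference was 1.19 with equal weights, 2.15 without the deepest 10%, 0.0296 with sets pooled, 2.18 and 3.0 without 1 or both clusters and 2.63 with coding length. The causes were not tested.

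Among single genes, 2 values changed direction after passing 1.5-fold: Slc2a3 in set 1, at -0.0368 in cells without Y-linked reads and -0.0799 without both clusters. Slc2a1 in the endoderm-like cluster was -0.0347 at resolution 2. Over 13 alternatives Hk2 stayed below 0 in set 1, between -1.34 and -0.30, and over 11 alternatives Slc2a1 stayed above 0 in set 2, between 0.65 and 0.99. Depth limits single-cell levels of genes of few reads in the shallowest cells; Pdk1 was detected in fewer cells of set 1 than of set 2 also after thinning to equal depth.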
